A study of Mus musculus with 2 samples.

Results

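The 49 genes described here carry a cell through mitosis: the kinases and cyclins that start it, the spindle checkpoint, the kinetochore, the motors of the spindle, the enzymes of anaphase and exit, and the proteins that fold and separate chromosomes. They were chosen by function and matched by symbol to 49 of the 43346 Ensembl gene entries in the deposited tables. Polyadenylated RNA was sequenced from CH12.LX, an immortalized B cell lymphoma line of the mouse strain B10.H-2aH-4bp/Wts, labelled female and of unknown age. There were 2 biological replicates from separate biosamples and no treatment, genotype or time point to compare. CH12.LX is used to study antibody class switching, and as a tumour line it does not stand for resting B cells. All values are levels in an unsynchronized population as far as the labels say, so fewer cells in mitosis and less RNA per mitotic cell cannot be told apart.

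As background, entry into mitosis depends on Cdk1 bound to cyclin A2 or a B-type cyclin. The transcription factor Foxm1 and the DREAM and MuvB complexes time the expression of many mitotic genes late in the cycle. They act at promoters through a short element called the cell cycle genes homology region (CHR). Another short element of many such promoters, the CCAAT box, is bound by the factor NF-Y. Kinetochores then attach chromosomes to spindle microtubules, the checkpoint holds the anaphase-promoting complex in check until all are attached, and Cdc20 with that complex marks securin and cyclin B for destruction. In lymphoid tissue these genes are markers of dividing cells, such as the dark zone cells of germinal centres.

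Each library held 22996547 and 25715408 expected counts, that is, counts estimated from reads and shared among overlapping transcripts. Levels are given as TPM, a share of all transcripts corrected for length, so that genes can be set side by side. Summed TPM of 8 B cell markers was 1617 in replicate 1 and 1734 in replicate 2, and all 8 were detected. The summed TPM of the marker lists of other lineages was between 0.38 and 6.42 in each library. For T cells it was 4.52 and 6.42, with 2 of 8 markers detected and Themis at 0. NK cell markers gave 0.38 and 0.40, with 0 of 4 detected and Ncr1 and Klrb1c at 0. Myeloid markers gave 4.13 and 3.33, with 2 of 6 detected and Mpo and Cd14 at 0. Erythroid and megakaryocyte markers gave 4.4 and 6.41, with 2 of 6 detected and Hbb-bs and Pf4 at 0. Stromal and endothelial markers gave 1.87 and 1.53, with 1 of 6 detected.

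Every member was present in both libraries at 1 TPM or more, the level called detected here. By the same rule 10317 of all 21474 protein-coding genes (48%) were detected. Of the 49, 48 reached 10 TPM and 13 reached 100 TPM in both replicates. The median member stood at 52.95 TPM, against 21.03 TPM for the 10317 protein-coding genes detected, and 42 of 49 members were above that median. This placed the median member at percentile 87.6 of all protein-coding genes and 74.2 of the detected ones. The highest and lowest members were 41.0-fold apart: Top2a, the topoisomerase that untangles sister chromatids, at 328 TPM in both replicates, and Anln, the cytokinetic ring protein anillin, at 8.89 and 7.13 TPM. On protein-coding transcripts alone, a sum chosen after seeing the data, Top2a stood at 203 and 186 TPM and Birc5 was the highest member at 222 and 213 TPM, 27.1-fold above Anln. Together the members took 0.716% and 0.695% of all counts, 164596 and 178533 counts.

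**Figure D1:**
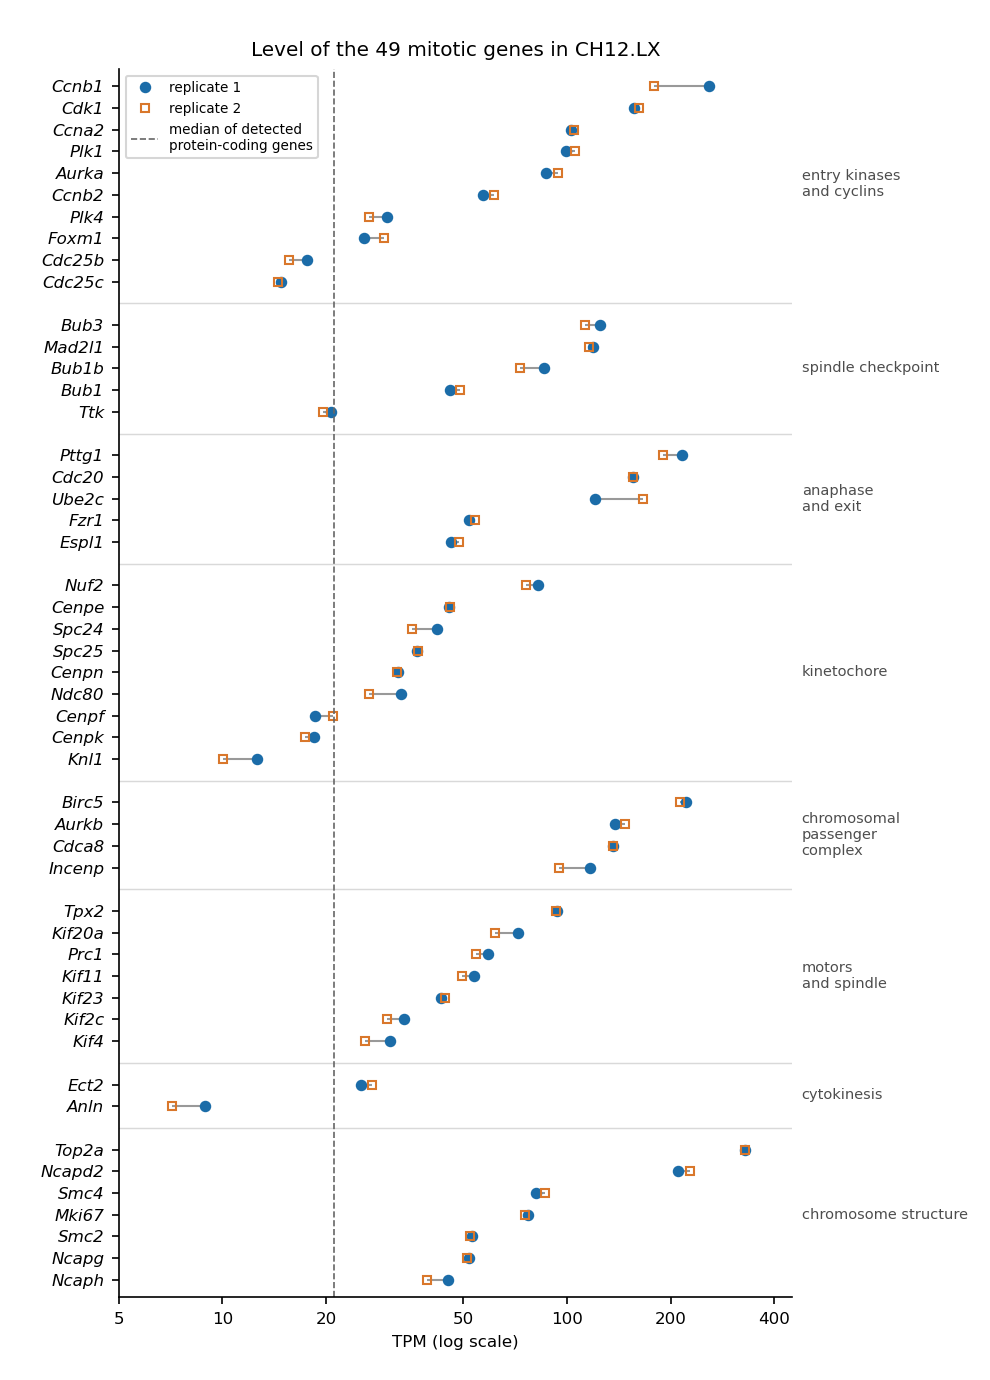
Level of each of the 49 members (horizontal axis, TPM on a log scale) in replicate 1 (filled circles) and replicate 2 (open squares), grouped by function, with a line joining the replicates and a dashed line at 21.03 TPM, the median of detected protein-coding genes. Top2a lies at the right end at 328 TPM and Anln at the left end, and Ccnb1 and Ube2c have visibly separated replicates.

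By position the members lay on 17 chromosomes. Chromosome 2 held 9 of them (18.4%), namely Aurka, Bub1, Bub1b, Cdc25b, Knl1, Ncaph, Spc25, Tpx2 and Ube2c. Of all protein-coding genes, 8.38% lie on that chromosome. The members were chosen by function, so this is a description of the list.

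Promoter sequence is shown because the CHR and the CCAAT box are the elements through which late cell cycle expression is known to be set. RefSeq gave promoter windows (GRCm38.p6, 250 bases before to 50 after the start site) for 40 of the 49 members. The windows were searched on both strands for the CHR-type hexamers TTTGAA and TTCGAA and for CCAAT; a hexamer overlapped a CCAAT in 1 member. Of the 40, 30 held a hexamer (75%), against 20.2% of 17492 protein-coding genes and 16.8% of the 8221 that were detected here. TTTGAA was the usual form, in 28 of 40 (70%, against 14.5% of detected genes), and TTCGAA was found in 4 of 40 (10%, against 2.69%). CCAAT was found in 30 of 40 (75%), against 43.7% of detected genes, and in 2 or more copies in 18 of 40 (45%, against 17.7%). A hexamer and a CCAAT stood in the same window in 26 of 40 members (65%) and in 7.25% of detected genes. A match describes the letters only and is not a measured binding site.

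The letters around the hexamer are shown for 11 members as examples, picked from those with TTTGAA on the gene's own strand within 50 bases of the start site; matches on the other strand and TTCGAA are not among them. Each line gives 22 bases of the gene's own strand, 5′ to 3′, with the hexamer in capitals.
Cdc20, chr4:118437348-118437369, minus strand: agttgggtTTTGAAggagccaa
Espl1, chr15:102296258-102296279, plus strand: tagggataTTTGAAaggaggtg
Cenpf, chr1:189688071-189688092, minus strand: gcgggcagTTTGAAtcgctcgt
Kif23, chr9:61946784-61946805, minus strand: ttggcctgTTTGAAatgcgccg
Ccnb2, chr9:70421537-70421558, minus strand: gcgcggtaTTTGAAtcgcggac
Ect2, chr3:27153826-27153847, minus strand: tggattttTTTGAAtcggaggc
Kif4, chrX:100626076-100626097, plus strand: gggatcaaTTTGAAacttggcg
Spc25, chr2:69206176-69206197, minus strand: gtggagagTTTGAAattgaaag
Plk1, chr7:122159457-122159478, plus strand: gcgccgcgTTTGAAttcgggga
Knl1, chr2:119047142-119047163, plus strand: cggttagaTTTGAAtacttcag
Aurka, chr2:172370525-172370546, minus strand: ggagaaccTTTGAAttgtaacg

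The hexamer began at position -27 in Espl1 and -18 in Cdc20, counted from the start site with negative positions before it. In the other 9 it began after the start, from position 2 in Cenpf and Kif23 to position 32 in Aurka. The Ect2 hexamer, at position 15 here, began at position 39 from another RefSeq start site. RefSeq gave 45 windows for the 40 members, so a match can stand at several positions. Over the 40 members, 42.5% had a hexamer within the 50 bases after the start and 25% within the 50 bases before it. Detected protein-coding genes had one there in 2.3% and 2.47%. CCAAT lay further upstream: 52.5% of members had it within the 50 bases before the start and 42.5% in the next 50 bases upstream, against 14.5% and 18.6% of detected genes.

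**Figure D2:**
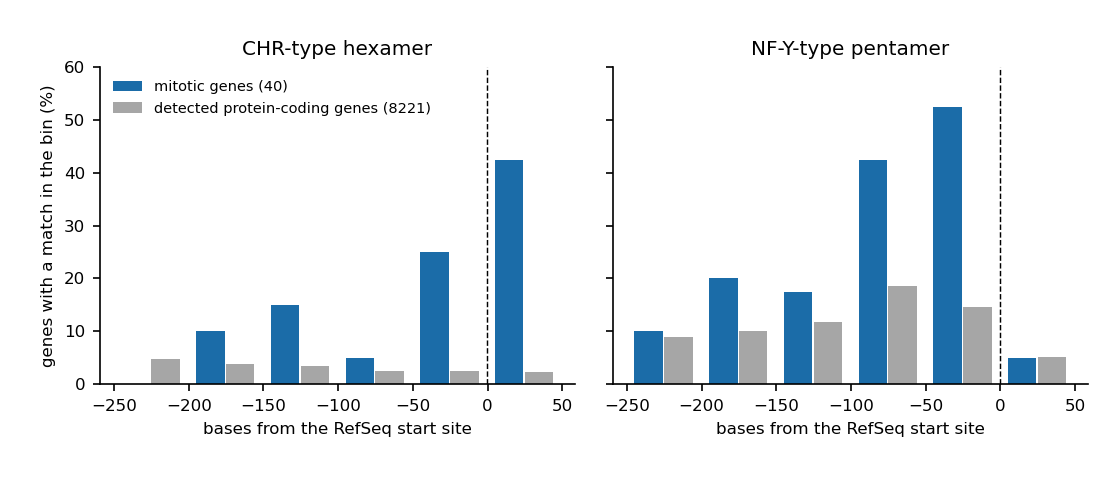
Share of genes with at least 1 match (vertical axis, percent) in bins of 50 bases by distance from the RefSeq start site (horizontal axis, dashed line at the start), for 40 members (blue) and 8221 detected protein-coding genes (grey), with the CHR-type hexamer on the left and the CCAAT pentamer (named for its factor, NF-Y) on the right. Members reach 42.5% for the hexamer just after the start and 52.5% for the pentamer just before it, where the detected genes stand at 2.3% and 14.5%.

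The promoters of Cdk1, Cdc20, Ube2c and Top2a show both elements together in the 120 bases before the start, with hexamers and CCAAT in capitals (reverse-strand matches read TTCAAA and ATTGG).
Cdk1, chr10:69352913-69353032, minus strand: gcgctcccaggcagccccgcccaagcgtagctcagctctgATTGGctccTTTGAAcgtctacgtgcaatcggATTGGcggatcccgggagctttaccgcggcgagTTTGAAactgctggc
Cdc20, chr4:118437344-118437463, minus strand: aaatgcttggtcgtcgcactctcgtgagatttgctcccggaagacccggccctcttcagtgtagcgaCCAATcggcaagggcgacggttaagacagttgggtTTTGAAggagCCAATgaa
Ube2c, chr2:164769809-164769928, plus strand: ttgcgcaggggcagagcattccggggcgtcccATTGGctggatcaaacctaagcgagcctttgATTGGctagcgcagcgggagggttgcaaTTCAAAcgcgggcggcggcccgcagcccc
Top2a, chr11:99024190-99024309, minus strand: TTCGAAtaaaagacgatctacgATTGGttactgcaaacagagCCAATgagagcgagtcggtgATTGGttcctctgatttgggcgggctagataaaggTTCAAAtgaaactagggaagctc

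Cdk1 and Top2a each held 2 hexamers in that stretch, and Cdc20 and Ube2c held 1. CCAAT was found 3 times in Top2a and 2 times in each of the other three. In RNA these were among the most abundant members: Cdk1 stood at 156 and 161 TPM, Cdc20 at 156 and 155 TPM, Ube2c at 121 and 167 TPM and Top2a at 328 TPM in both. They are examples: the same stretch held both elements also in Cenpn, Espl1 and Kif11, and in 1 window each of Bub3, Ect2 and Prc1. Of these, Cenpn stood at 32.3 and 32.0 TPM and Bub3 at 125 and 113 TPM. A link between the elements and the level was not tested. Neither element was found in the windows of 6 members, Birc5, Mad2l1, Ncaph, Nuf2, Plk4 and Pttg1, of which Birc5 and Pttg1 stood above 180 TPM. Ccnb1 held CCAAT and no hexamer. No match says only that these letters are not in this window, and a window can miss the start in use. The Pttg1 window was set by the start of Pttg1-204 (chr11:43425981, minus strand), which held 3.1% and 3.8% of the TPM. Pttg1-205 and Pttg1-203, the leading transcripts, begin upstream at 43426217 and 43426202. The Kif2c window, chr4:117178723-117179022, likewise misses the start of Kif2c-201 at 117182639, which held 92.6% and 95.2% of the TPM. Of 78 other genes of mitosis with a window, 48.7% held a hexamer, 56.4% held CCAAT and 30.8% held both.

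Among the kinases and cyclins that bring a cell into mitosis, all 10 were detected, with a median of 74.99 TPM. Ccnb1, cyclin B1, was the highest at 259 TPM in replicate 1 and 179 TPM in replicate 2 (218.9 ± 56.7, SD, n = 2). Cyclin B2, Ccnb2, stood lower at 57.2 and 61.5 TPM, and cyclin A2, Ccna2, at 103 and 105 TPM. Their partner Cdk1 stood at 156 and 161 TPM. Within each library the order was thus Ccnb1, Cdk1, Ccna2 and Ccnb2, and the replicates of these 4 genes did not overlap each other.

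Polo-like kinase 1, Plk1, which drives entry, spindle assembly and exit, was found at 99.2 and 106 TPM. Plk4, which starts centriole duplication, stood at 30.01 and 26.69 TPM. Aurora A, Aurka, the centrosome kinase, reached 87.2 and 94.1 TPM. Cdc25b and Cdc25c, phosphatases that remove the inhibitory phosphates from Cdk1, were the lowest of the group. Cdc25b stood at 17.6 and 15.6 TPM and Cdc25c at 14.8 and 14.5 TPM. Outside the members, the related Cdc25a stood at 56.2 and 52.4 TPM. The transcription factor Foxm1 stood at 25.8 and 29.5 TPM, a range that overlapped that of Plk4.

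The 5 spindle checkpoint genes had a median of 79.56 TPM. Bub3 and Mad2l1, both parts of the complex that holds Cdc20, were the highest at 125 and 113 TPM and at 119 and 116 TPM. Bub1b (BubR1) followed at 85.99 and 73.12 TPM, then the kinase Bub1 at 45.7 and 48.8 TPM. The kinase Ttk (Mps1), which starts checkpoint signalling at the kinetochore, was the lowest at 20.7 and 19.6 TPM. Bub3 and Mad2l1 overlapped between replicates, and the other 3 were each separated from their neighbours.

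The 5 genes of anaphase and mitotic exit had a median of 143.6 TPM. Pttg1, securin, the inhibitor of separase, stood at 216 and 190 TPM. Cdc20, which activates the anaphase-promoting complex in mitosis, stood at 156 and 155 TPM. Fzr1 (Cdh1), which activates it from late mitosis into G1, stood lower at 51.9 and 54.0 TPM. Ube2c, the ubiquitin-conjugating enzyme that works with that complex, differed between the libraries, at 121 and 167 TPM. Espl1, separase, the protease that cleaves cohesin, was the lowest at 46.0 and 48.6 TPM.

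The 9 kinetochore genes were lower, with a median of 32.16 TPM. Nuf2, a subunit of the microtubule-binding Ndc80 complex, was the highest at 82.2 and 76.2 TPM. The motor Cenpe, which moves chromosomes to the spindle equator, stood at 45.5 and 45.6 TPM. Cenpf stood at 18.57 and 20.95 TPM, and the inner kinetochore proteins Cenpk and Cenpn at 18.5 and 17.4 TPM and at 32.3 and 32.0 TPM. Knl1, the scaffold on which Bub1 and Bub3 assemble, was the lowest at 12.6 and 10.1 TPM, below the median of detected protein-coding genes in both libraries.

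In contrast to the kinetochore, the 4 genes of the chromosomal passenger complex were all abundant, with a median of 139.4 TPM. This complex corrects faulty attachments and later guides cytokinesis. Birc5, survivin, stood at 222 and 213 TPM. The kinase Aurkb stood at 138 and 148 TPM and Cdca8, borealin, at 136 TPM in both. Incenp, the scaffold of the complex, was the lowest at 116 and 94.8 TPM.

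Spindle motors and microtubule-bundling proteins had a median of 51.64 TPM over 7 genes. Tpx2, which nucleates microtubules and activates Aurora A, was the highest at 93.8 and 93.2 TPM. Kif20a, a motor of the central spindle, followed at 72.0 and 61.9 TPM. Prc1, which bundles antiparallel microtubules, stood at 59.0 and 54.5 TPM, and Kif11 (Eg5), which pushes the spindle poles apart, at 53.6 and 49.7 TPM. Kif23, a subunit of centralspindlin, reached 43.0 and 44.3 TPM, and Kif2c, a microtubule depolymerase, 33.7 and 30.1 TPM. The chromokinesin Kif4 was the lowest at 30.7 and 25.9 TPM. For cytokinesis, Ect2, the exchange factor that activates RhoA, stood at 25.2 and 27.1 TPM, and Anln at the level given above.

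Chromosome structure genes ran from Top2a to Ncaph. Mki67, which coats mitotic chromosomes and gives the proliferation antigen Ki-67, stood at 77.0 and 75.5 TPM. Its 12654 and 13801 counts were, after those of Top2a (18845 and 19540), the most of any member. Among the condensin I subunits, Ncapd2 stood at 210 and 228 TPM and Smc4 at 81.4 and 86.6 TPM. Smc2 stood at 53.1 and 52.2 TPM, Ncapg at 51.9 and 51.4 TPM and Ncaph at 45.02 and 39.29 TPM.

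Subunits and partners that work together spanned from 1.96-fold to 5.19-fold. Spans of other gene sets were not measured for comparison. The Ndc80 complex spanned 2.66-fold from Ndc80 (32.9 and 26.6 TPM) to Nuf2, with Spc24 (41.9 and 35.4 TPM) and Spc25 (36.6 and 36.9 TPM) between them. In the chromosomal passenger complex Birc5 was 2.06-fold above Incenp. The mitotic checkpoint complex, Bub1b, Bub3, Mad2l1 and Cdc20, spanned 1.96-fold. Condensin I spanned 5.19-fold, from Ncaph to Ncapd2, and Cdk1 with its cyclins 3.69-fold, from Ccnb2 to Ccnb1. When only transcripts annotated as protein coding were summed, a choice made after seeing the data, condensin I spanned 1.93-fold and Cdk1 with its cyclins 2.21-fold. Ncapd2 then stood at 72.6 and 78.6 TPM and Ccnb1 at 128 and 134 TPM.

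**Figure D3:**
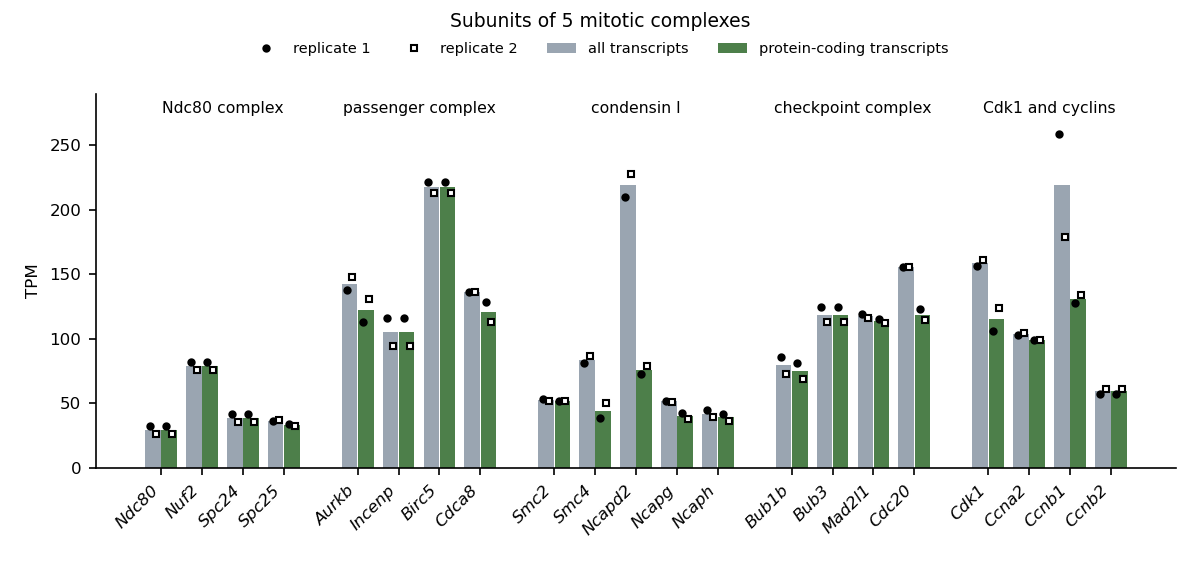
TPM (vertical axis) of the subunits of 5 complexes, with bars at the mean of the replicates for all transcripts (grey) and for protein-coding transcripts (green), circles for replicate 1 and squares for replicate 2. The grey bars of Ncapd2 and Ccnb1 stand far above their partners, and their green bars stand at 75.6 and 130.8 TPM.

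Transcript estimates show where those sums came from. The members had 233 annotated transcripts, and 14 members had only 1. For 43 of 49 the leading transcript was protein coding and held at least 50% of the gene's TPM in both replicates. The other 6 were Ccnb1, Pttg1, Prc1, Ect2, Ncapd2 and Smc4. Transcripts not annotated as protein coding held over 20% of the TPM in both replicates for 9 members (18.4%), and this was so for 22.7% of detected protein-coding genes. In Plk4, counted among the 9, these were transcripts not matched in GENCODE M21, whose type is unknown here. The median share on such transcripts was 3.0% and 1.7% in the members and 1.7% and 1.5% in detected genes.

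**Figure D4:**
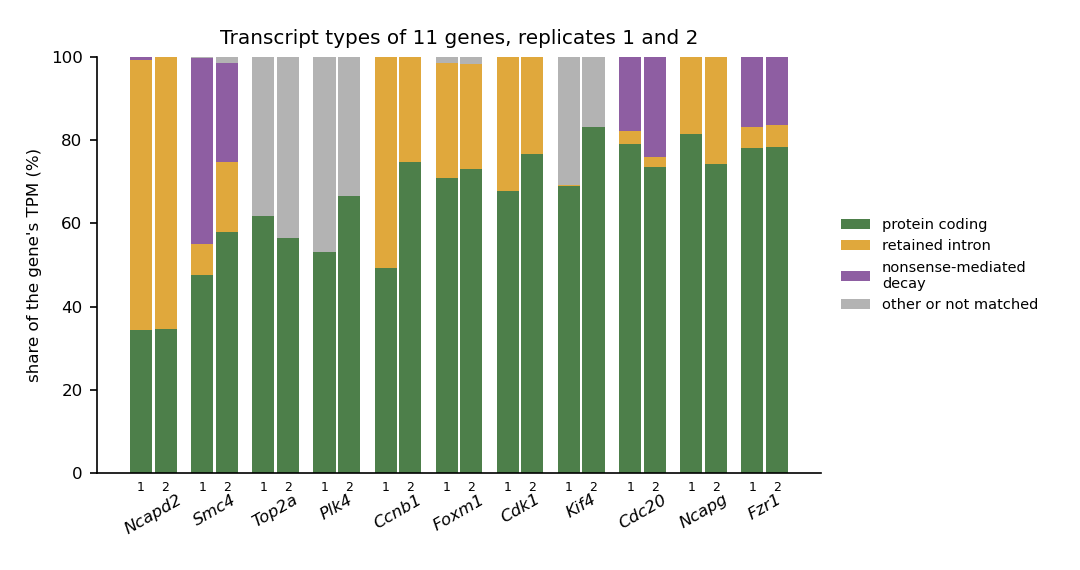
Share of the gene's TPM (vertical axis, percent) on transcripts annotated as protein coding, retained intron, nonsense-mediated decay or other, in replicates 1 and 2, for the 11 members with over 20% outside protein coding in either replicate. Ncapd2 has the tallest retained-intron segment in both replicates, and the green segments of Ccnb1, Plk4 and Smc4 are taller in replicate 2.

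Ccnb1 differed between the libraries more in TPM than in counts. The gene had 6045 counts in replicate 1 and 6198 in replicate 2, a log2 ratio of -0.10 once scaled to library size, while the log2 ratio of its TPM was -0.53. Its main transcript, Ccnb1-201 of 2489 bases, was close in both, at 114 and 106 TPM. The retained-intron transcript Ccnb1-205 spans chr13:100785537-100786475 (mm10, minus strand) near the 5′ end of the gene and has only 461 bases. It took 767 counts in replicate 1 and 190 in replicate 2, which is 12.7% (Wilson 95% interval 11.9% to 13.5%) and 3.1% (2.7% to 3.5%) of the gene's counts. Because TPM divides by length, those counts became 111 and 24.8 TPM, or 42.9% and 13.9% of the gene's TPM.

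In Ncapd2 the split between coding and retained-intron transcripts was close in both libraries. Its protein-coding transcript Ncapd2-201 held 75.8% and 76.9% of the counts but 33.6% and 33.1% of the TPM. The retained-intron transcript Ncapd2-206, 894 bases at the 3′ end (chr6:125168007-125169284, minus strand), held 62.2 and 61.7 TPM. Retained-intron transcripts together held 64.8% and 65.4% of the TPM of Ncapd2. Among them Ncapd2-208 went from 3.5% to 16.3% of the TPM (53 and 297 counts) and Ncapd2-202 from 11.5% to 6.3% (312 and 203 counts).

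Smc4 and Pttg1 changed their leading transcript between the libraries. Smc4-207, annotated as a target of nonsense-mediated decay, took 48.2% of the Smc4 counts in replicate 1 (46.8% to 49.6%) and 27.6% in replicate 2 (26.5% to 28.9%). The protein-coding Smc4-202 took 43.2% (41.9% to 44.6%) and 53.6% (52.3% to 55.0%). The 2 transcripts have 4057 and 3983 bases, so their counts and TPM shares are close. In Pttg1, Pttg1-205 took 63.6% (61.6% to 65.5%) and then 41.9% (39.96% to 43.91%), and Pttg1-203 took 18.9% (17.4% to 20.6%) and then 45.9% (43.95% to 47.94%). Both are protein coding, with 696 and 700 bases. These intervals cover counting error only, not the error of dividing reads between overlapping transcripts, which was not tested.

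Prc1 and Ect2 spread their RNA over several coding transcripts. The leading Prc1-206 held 45.2% and 32.5% of the TPM, and Prc1-202 had 9 counts in replicate 1 and 419 in replicate 2. In Ect2 the leading Ect2-202 held 47.5% and 51.5% and Ect2-207 held 32.9% and 31.5%. Top2a, Cdk1, Foxm1, Plk4, Cdc20 and Fzr1 were led by a coding transcript but had over 20% of TPM elsewhere in both replicates. In Top2a it was 38.1% and 43.4%, chiefly Top2a-207, a processed transcript of 803 bases at the 3′ end with 5.9% and 6.7% of the counts. In Cdk1 it was 32.1% and 23.2%, chiefly the retained-intron Cdk1-204. In Cdc20 the transcript Cdc20-203, annotated for nonsense-mediated decay, held 17.7% and 24.0% of the TPM.

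The libraries can be compared only with each other, since the labels give 1 group. Each gene's counts were set against library size by a two-sided exact binomial test, adjusted by the Benjamini-Hochberg method over 15340 genes. This test holds counting error only and compares these 2 libraries, not conditions. It called 11 members higher in replicate 2 (22.4%) and 16 lower (32.7%), with 22 not called. Over all genes tested it called 14.7% higher and 15.9% lower, and over the 8661 genes with at least 500 counts it called 21.9% higher and 20.5% lower. The median log2 ratio of the members was -0.028, against 0.002 for all genes tested, and 45 of 49 lay within 0.25 of 0, as did 82.3% of the genes with at least 500 counts. With edgeR's negative binomial exact test, 0 members were called, and 0 had an unadjusted p under 0.05. It adds the spread between the libraries, a common coefficient of variation of 19.8%. That spread was estimated from the same 2 libraries taken as 1 group, so it holds the difference being tested. The 0 calls therefore do not show that the members were equal. The negative binomial test called 2.54% of all genes.

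**Figure D5:**
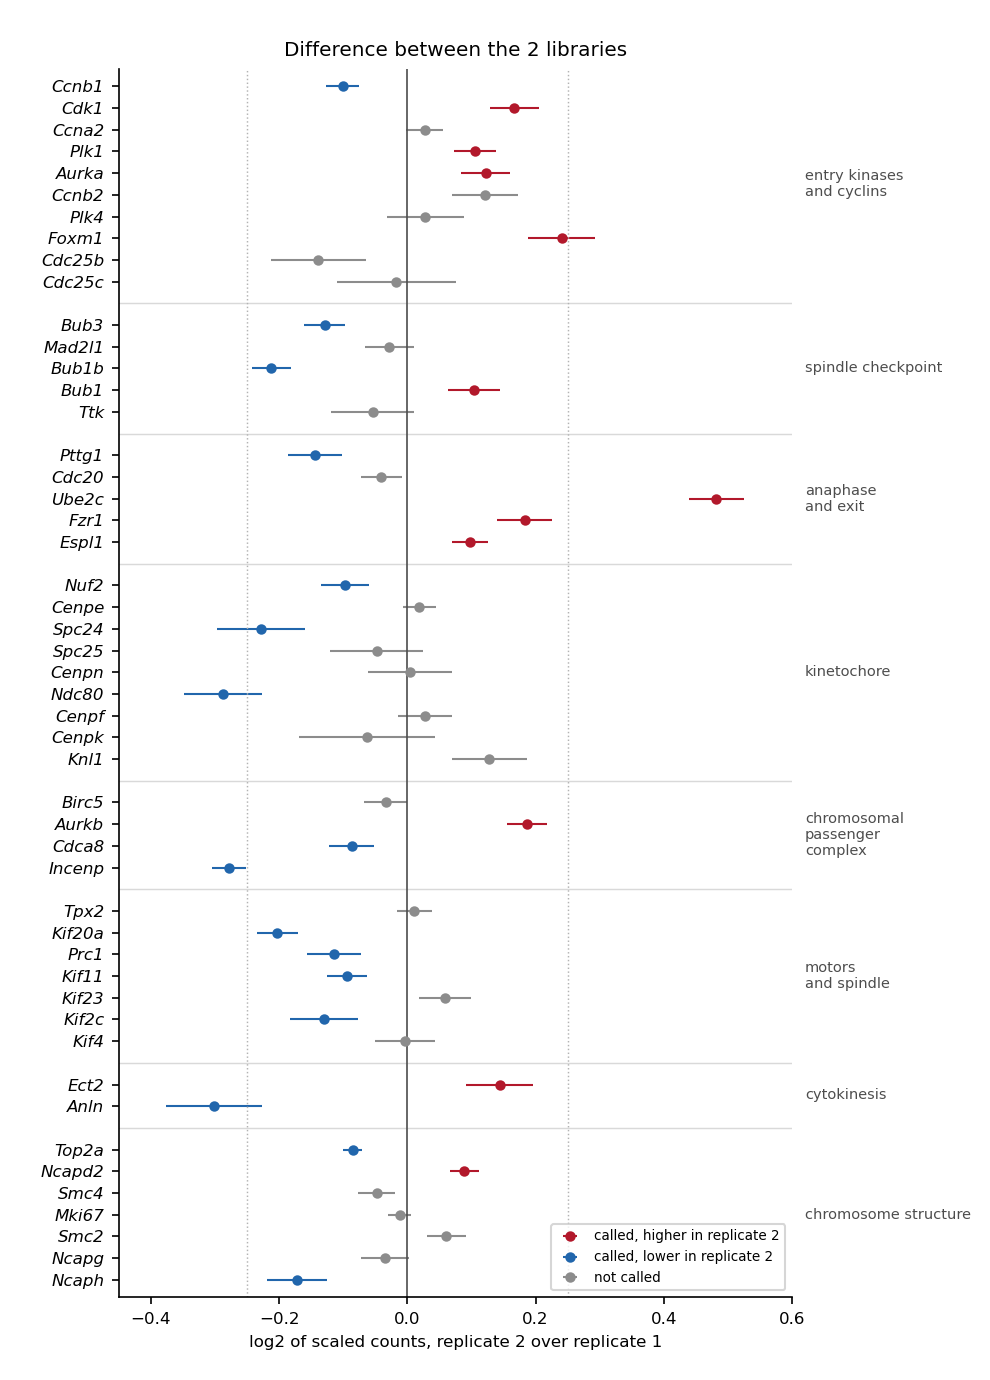
Log2 ratio of scaled counts, replicate 2 over replicate 1 (horizontal axis), for each member, with bars of 1 counting standard error; red and blue points were called higher and lower by the exact binomial test and grey points were not called. Ube2c stands apart at 0.48, and dotted lines at -0.25 and 0.25 enclose 45 of the 49 members.

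Ube2c had the largest ratio among the members, with 1836 and 2820 counts and a log2 ratio of 0.48 (counting SE 0.043; adjusted p = 9.02e-28, exact binomial test). It was followed upward by Foxm1 at 0.24 (1381 and 1794 counts), Aurkb at 0.19 (3797 and 4754), Fzr1 at 0.18 (1991 and 2485) and Cdk1 at 0.17 (2578 and 3182). The largest ratios downward were those of Anln at -0.30 (784 and 699 counts), Ndc80 at -0.29 (1164 and 1048), Incenp at -0.28 (6051 and 5488), Spc24 at -0.23 (899 and 844) and Bub1b at -0.21 (4866 and 4619). The direction of these 10 ratios held under 7 other settings. Among those settings, other minimum counts cannot alter a ratio, and a pseudocount of 5 hardly can at these counts. Each call was lost with the negative binomial test, at an adjusted p of 1. On the deposited TPM the log2 ratios of Cdk1, Fzr1 and Aurkb were smaller, at 0.05, 0.06 and 0.10.

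By function the calls were mixed. Among all genes with at least 500 counts, 21.9% were called higher and 20.5% lower, and these small groups were not tested as sets. Of the 10 entry kinases and cyclins, 4 were higher in replicate 2 (Cdk1, Foxm1, Plk1 and Aurka) and 1 was lower (Ccnb1, log2 ratio -0.10). In the anaphase group 3 of 5 were higher (Ube2c, Fzr1 and Espl1) and Pttg1 was lower, at -0.14. Of the 9 kinetochore genes none was higher and 3 were lower (Ndc80, Nuf2 and Spc24 of the Ndc80 complex, whose Spc25 was not called). Of the 7 spindle genes none was higher and 4 were lower, namely Kif20a, Kif2c, Prc1 and Kif11. In the passenger complex Aurkb was higher while Incenp and Cdca8 were lower, and in condensin I Ncapd2 was higher and Ncaph lower. For the 9 kinetochore and 7 spindle genes the negative binomial test gave 0 calls and 0 unadjusted p-values under 0.05 as well.

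The members are not the only mitotic genes in use. Of 89 further genes of mitosis, taken from lists of known function, all 89 were detected, beside 48% of all protein-coding genes. Their median was 34.08 TPM. Of these, 14 were higher in replicate 2 (15.7%) and 18 lower (20.2%), beside the shares of all genes given above. With the negative binomial exact test of edgeR 0 of the 89 were called, and 0 had an unadjusted p under 0.05. By list, 24 of 24 kinetochore and centromere genes, 9 of 9 checkpoint genes, 18 of 18 spindle and cytokinesis genes, 16 of 16 genes of the anaphase-promoting complex and its partners, 19 of 19 of entry control and 3 of 3 condensin II subunits were detected.

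The 2 most abundant genes of each list, by the mean of the replicates, were as follows. Zwint, which links Knl1 to the checkpoint, reached 208 and 189 TPM and Pmf1, a Mis12 complex subunit, 103 and 104 TPM. Among checkpoint genes Zwilch stood at 64.3 and 53.8 TPM and Trip13 at 50.6 and 51.7 TPM. Tacc3, a spindle microtubule protein, stood at 119 and 109 TPM and Racgap1, the partner of Kif23 in centralspindlin, at 115 and 96.2 TPM. Ube2s, which extends ubiquitin chains after Ube2c has begun them, reached 360 and 324 TPM, above every member in replicate 1 and next below Top2a in replicate 2. Anapc5 stood at 135 and 138 TPM. Arpp19, an inhibitor of the phosphatase PP2A-B55, reached 389 and 353 TPM, and Rbbp4, a subunit of MuvB, 169 and 131 TPM. In condensin II, Ncaph2 stood at 92.9 and 70.0 TPM and Ncapg2 at 26.8 and 27.8 TPM.

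A further list held 18 paralogs of mitotic genes and meiotic genes, kept apart from the lists above. Being on this list does not mean that a gene has no part in mitosis. Of the 18, 14 were not detected, with at most 6 counts in a library. Ccna1, Ccnb3, Plk5, Cdc20b, Kif2b, Stag3 and Sycp3 had 0 counts in both, which allows up to 3 counts in each library. Aurkc had 0 and 5 counts, Meikin 0 and 2, Mos 0 and 1, Sycp1 0 and 1, Smc1b 1 and 0, Rec8 1 and 1, and Spo11 4 and 6. Those detected were Kif2a (77.9 and 64.8 TPM), Top2b (40.4 and 39.9 TPM), Plk3 (11.4 and 13.6 TPM) and Plk2 (4.84 and 3.76 TPM), which are known to be expressed in many non-dividing cells. Top2a was thus at 328 TPM beside 40.2 TPM for Top2b, and Kif2c was below Kif2a.

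Reads were assigned to the members with little ambiguity as the deposited files report it. The posterior SD of a member's count was at most 0.451% of the count, and 0 of 49 passed 5%. For 34 of 49 members at least 95% of their 36-base stretches were found in no other gene. The lowest shares were 73.6% in Ccnb1, which shares 21.8% of its stretches with the pseudogene Ccnb1-ps, and 73.7% in Kif20a, which shares 26.3% with Cdc23 on the other strand. Ccnb1-ps itself had 59.8 and 24.1 counts. Exons of 16 members overlap those of another gene, in 13 cases on the other strand, and 7 members have over 10% of their exon bases overlapped. Strand use in the counting is not given in the sources used here, so reads of such pairs cannot be told apart. For Ube2c, which overlaps Tnnc2 over 22.8% of its exon bases, Tnnc2 had 0 counts in both libraries.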

How the data were processed

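Polyadenylated RNA of CH12.LX was measured in 2 libraries. The deposited gene and transcript tables hold expected counts, TPM, FPKM and posterior estimates, quantified on mm10 with GENCODE M4 per the file headers and notes; no source used here names the aligner or the quantifier. TPM and FPKM are the authors' deposited values and were not rescaled. The posterior SD of the count was expressed as a percent of the deposited posterior mean count. Expected counts, as deposited, were rounded for tests.

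Gene names, types and coordinates came from GENCODE M21 (GRCm38, the assembly of mm10), which matched 42462 of 43346 Ensembl entries (98%). Entries that name no gene, 0.0426% and 0.0539% of the counts, were left out of tests. Promoters were RefSeq's (GRCm38.p6).

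Library sizes were scaled by TMM (edgeR 4.0.16 in R 4.3.3), and genes with at least 10 counts over both libraries were tested by a two-sided exact binomial test (Benjamini-Hochberg, 0.05). A quasi-likelihood fit of replicate 2 against replicate 1 leaves no residual degrees of freedom. Log2 ratios used a pseudocount of 0.5. Wilson intervals came from statsmodels 0.14.6. The test was checked on simulated data that held counting error only, so the check does not cover the spread between libraries. DESeq2 1.42.0 size factors, library totals, other minimums, posterior mean counts and a negative binomial exact test were alternatives. Nothing in the labels beyond separate biosamples describes how the replicates were grown. The binomial p-values measure counting error only, and differences between these libraries may be technical.

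The members, lists and tests were chosen with earlier results of these data known. Full values are given for the highest and lowest member of each group, the 5 largest ratios in each direction among those called, members led by a non-coding or minor transcript and subunits of complexes, and of other lists for the 2 highest genes and those not detected. Other members, and Cdc25a outside them, are given by level.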

Additional observations from a re-analysis of the deposited data

How the results depend on the processing

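All 49 members were detected at 0.5 and 5 TPM, at 1 FPKM, with posterior mean TPM and in each library alone, and the 89 other genes of mitosis also at 5 TPM. The median member stood at 51.77 TPM with posterior means, 54.05 TPM when TPM was rescaled over Ensembl entries, 51.64 TPM on protein-coding transcripts, and 53.6 to 54.05 TPM when either replicate was left out. With the negative binomial exact test the 11 higher and 16 lower members became 0 and 0, and the counting-error calls of the 10 named ratios were lost. The spread that then enters the error was estimated from the same 2 libraries. No other scaling, minimum or count estimate moved the counts of calls by over 1.5 times. On protein-coding transcripts, a choice added after seeing the data, condensin I spanned 1.927-fold, Cdk1 with its cyclins 2.205-fold and the checkpoint complex 1.581-fold, because TPM on short non-coding transcripts was left out. Leaving out a replicate leaves no comparison of libraries. No paired analysis was possible because the labels give 1 group. A planned search for degradation motifs in member proteins was not run. Depth did not limit detection: the fewest counts of any member in a library were 359.5, in Cenpk.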

Other observations

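Outside the 49 genes, Mybl2, the B-Myb factor that joins MuvB at mitotic promoters, differed more in TPM than in counts, as Ccnb1 did. It had 5269 and 5261 counts, a log2 ratio of -0.14 once scaled to library size (adjusted p = 6.89e-06, exact binomial test), and 150.6 and 97.4 TPM, a log2 ratio of -0.63. Mybl2 was chosen after its values were seen. In condensin II, Ncapd3 was higher in replicate 2 (1187 and 1532 counts, log2 ratio 0.23) and Ncaph2 lower (log2 ratio -0.23) by the exact binomial test, and this pair too was chosen after its values were seen. For all 3 genes the adjusted p was 1 with edgeR's negative binomial exact test.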
